A study of Homo sapiens with 36 samples.

Results

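The glucocorticoid receptor gene NR3C1 and 7 genes of the Hsp90 machinery that handles the receptor were followed here: FKBP5, FKBP4, HSP90AA1, HSP90AB1, PTGES3, STIP1 and HSPA8. They were picked by gene symbol, with earlier results of these data known, and all 8 of the 15186 genes in the deposited table were found and passed the filter on low counts. RNA-seq had been done on U2OS, a human osteosarcoma line, in a form that stably carries GR alpha. Every group had received siRNA, and every group had then been given 100 nM dexamethasone (dex, a synthetic glucocorticoid) or the ethanol vehicle for 8 h, starting 48 h after transfection. The siRNA conditions were siHic5siNS (siRNA against Hic-5, a LIM-domain coregulator of the receptor, plus non-silencing siRNA), siCHD9siNS (against the chromatin remodeler CHD9), siBRMsiNS (against BRM, an ATPase of SWI/SNF), the double treatments siCHD9siHic5 and siBRMsiHic5, and the control siNSsiNS with non-silencing siRNA only. Each of these 6 conditions had 3 dex and 3 vehicle libraries, 36 in all, and the labels give the replicates as biological ones from different days. The labels do not say which species or which part of the receptor the added gene comes from, so the share of NR3C1 counts that it supplies was not tested.

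Unliganded glucocorticoid receptor sits in the cytoplasm with chaperones. Hsp70 first binds the new receptor, the adaptor Hop passes it to an Hsp90 dimer, and p23 then holds the closed Hsp90 complex in which the receptor can bind hormone. The immunophilin FKBP51 lowers hormone affinity in that complex, and its gene, FKBP5, is itself a widely used glucocorticoid target. The related FKBP52 is known to favour receptor activity and transport to the nucleus.

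The 8 genes lie on 5 chromosomes (GRCh38, GENCODE v29 annotation). NR3C1 is at chr5:143277931-143435512 on the minus strand, FKBP5 at chr6:35573585-35728583 (minus) and HSP90AB1 at chr6:44246166-44253888 (plus). FKBP4 is at chr12:2794953-2805423 (plus), PTGES3 at chr12:56663341-56688408 (minus) and HSP90AA1 at chr14:102080738-102139699 (minus). STIP1 is at chr11:64185272-64204543 (plus) and HSPA8 at chr11:123057489-123063230 (minus). The annotation names 17 pseudogenes after HSPA8, 5 each after FKBP4, HSP90AB1 and PTGES3, 4 after HSP90AA1 and 1 after STIP1. None of these pseudogenes is listed in the table analysed here, so the values of these 6 genes are uncertain to the extent that reads are shared with them.

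Promoter windows of 300 bases (250 before to 50 after a start site) were available from RefSeq (GRCh38.p14) for the members except FKBP4. Windows were searched on both strands for a loose glucocorticoid response element, GNACANNNTGTNC, which 0.39% of 35116 windows hold, and no member window held it. They were also searched for a heat shock element of 3 units, GAANNTTCNNGAA, or TTCNNGAANNTTC on the other strand, which 0.49% of windows hold. The shorter GAANNTTC, contained in that element, is in 6.77% of windows. One window each of HSP90AA1, HSP90AB1 and HSPA8 held the longer element. These windows are shown because they carry the heat shock motif in the 3 most abundant members, of which HSP90AB1 behaves unlike the others below. Capitals mark the element, and each sequence runs along the strand of its gene.
HSP90AB1, chr6:44247693-44247992, plus strand: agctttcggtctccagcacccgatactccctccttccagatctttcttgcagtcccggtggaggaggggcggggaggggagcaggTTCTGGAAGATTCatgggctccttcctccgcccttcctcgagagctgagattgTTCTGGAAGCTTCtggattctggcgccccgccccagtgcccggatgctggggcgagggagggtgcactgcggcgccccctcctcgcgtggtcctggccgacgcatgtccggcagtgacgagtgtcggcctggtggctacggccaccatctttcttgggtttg
HSP90AA1, chr14:102086995-102087294, minus strand: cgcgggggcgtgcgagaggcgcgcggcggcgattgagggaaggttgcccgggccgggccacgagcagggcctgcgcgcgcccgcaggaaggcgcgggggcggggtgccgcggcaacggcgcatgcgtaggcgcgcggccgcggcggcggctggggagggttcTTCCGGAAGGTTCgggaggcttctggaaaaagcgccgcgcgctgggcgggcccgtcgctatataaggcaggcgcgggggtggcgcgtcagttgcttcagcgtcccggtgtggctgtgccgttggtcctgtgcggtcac
HSPA8, chr11:123062087-123062386, minus strand: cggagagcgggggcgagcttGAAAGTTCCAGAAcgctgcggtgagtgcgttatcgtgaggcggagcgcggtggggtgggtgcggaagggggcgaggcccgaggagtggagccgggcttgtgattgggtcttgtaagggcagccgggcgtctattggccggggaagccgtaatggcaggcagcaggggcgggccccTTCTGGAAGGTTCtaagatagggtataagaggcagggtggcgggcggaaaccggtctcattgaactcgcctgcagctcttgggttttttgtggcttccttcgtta
The HSP90AB1 window has 2 matches between 165 and 100 bases before the start site, HSPA8 has 2 between 230 and 43 bases before it, and HSP90AA1 has 1 between 88 and 76 bases before it. A match is a description of the letters only.

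Library totals were 27442282 to 47148257 counts, and levels are given as CPM, counts brought to a common library size with upper-quartile factors. TGFB1I1, the gene of Hic-5, stood at 24.8%, 26.2% and 18.4% of the siNSsiNS vehicle level with siHic5siNS, siCHD9siHic5 and siBRMsiHic5 (edgeR adjusted p at most 2.01e-07). SMARCA2, the gene of BRM, stood at 28.9% and 24.9% with siBRMsiNS and siBRMsiHic5 (adjusted p at most 9.83e-07). CHD9 stood at 67.8% with siCHD9siNS (edgeR adjusted p = 0.0193) but at 139% in the vehicle libraries labelled siCHD9siHic5 (adjusted p = 0.0293), and at 51.0% with siBRMsiHic5. The transcript thus goes against the label of siCHD9siHic5, and every value of that condition below is from libraries labelled so. In dex libraries CHD9 stood at 85.4% with siCHD9siNS, which was not called (edgeR adjusted p = 0.412), and at 71.2% with siHic5siNS (0.0246). A lower CHD9 level was not measured beyond error in the siCHD9siNS dex libraries, whose values below go by their label. Of the osteoblast and mesenchymal markers, COL1A1, SPARC and VIM were at 991 CPM or more in every library, and RUNX2 reached 63.7 CPM; COL1A2 and TWIST1 were not analysed here. EPCAM, CDH1 and PECAM1, markers of epithelium and endothelium, were at most 4.83 CPM, while the keratin KRT8 reached 86.2 to 414 CPM.

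**Figure D1:**
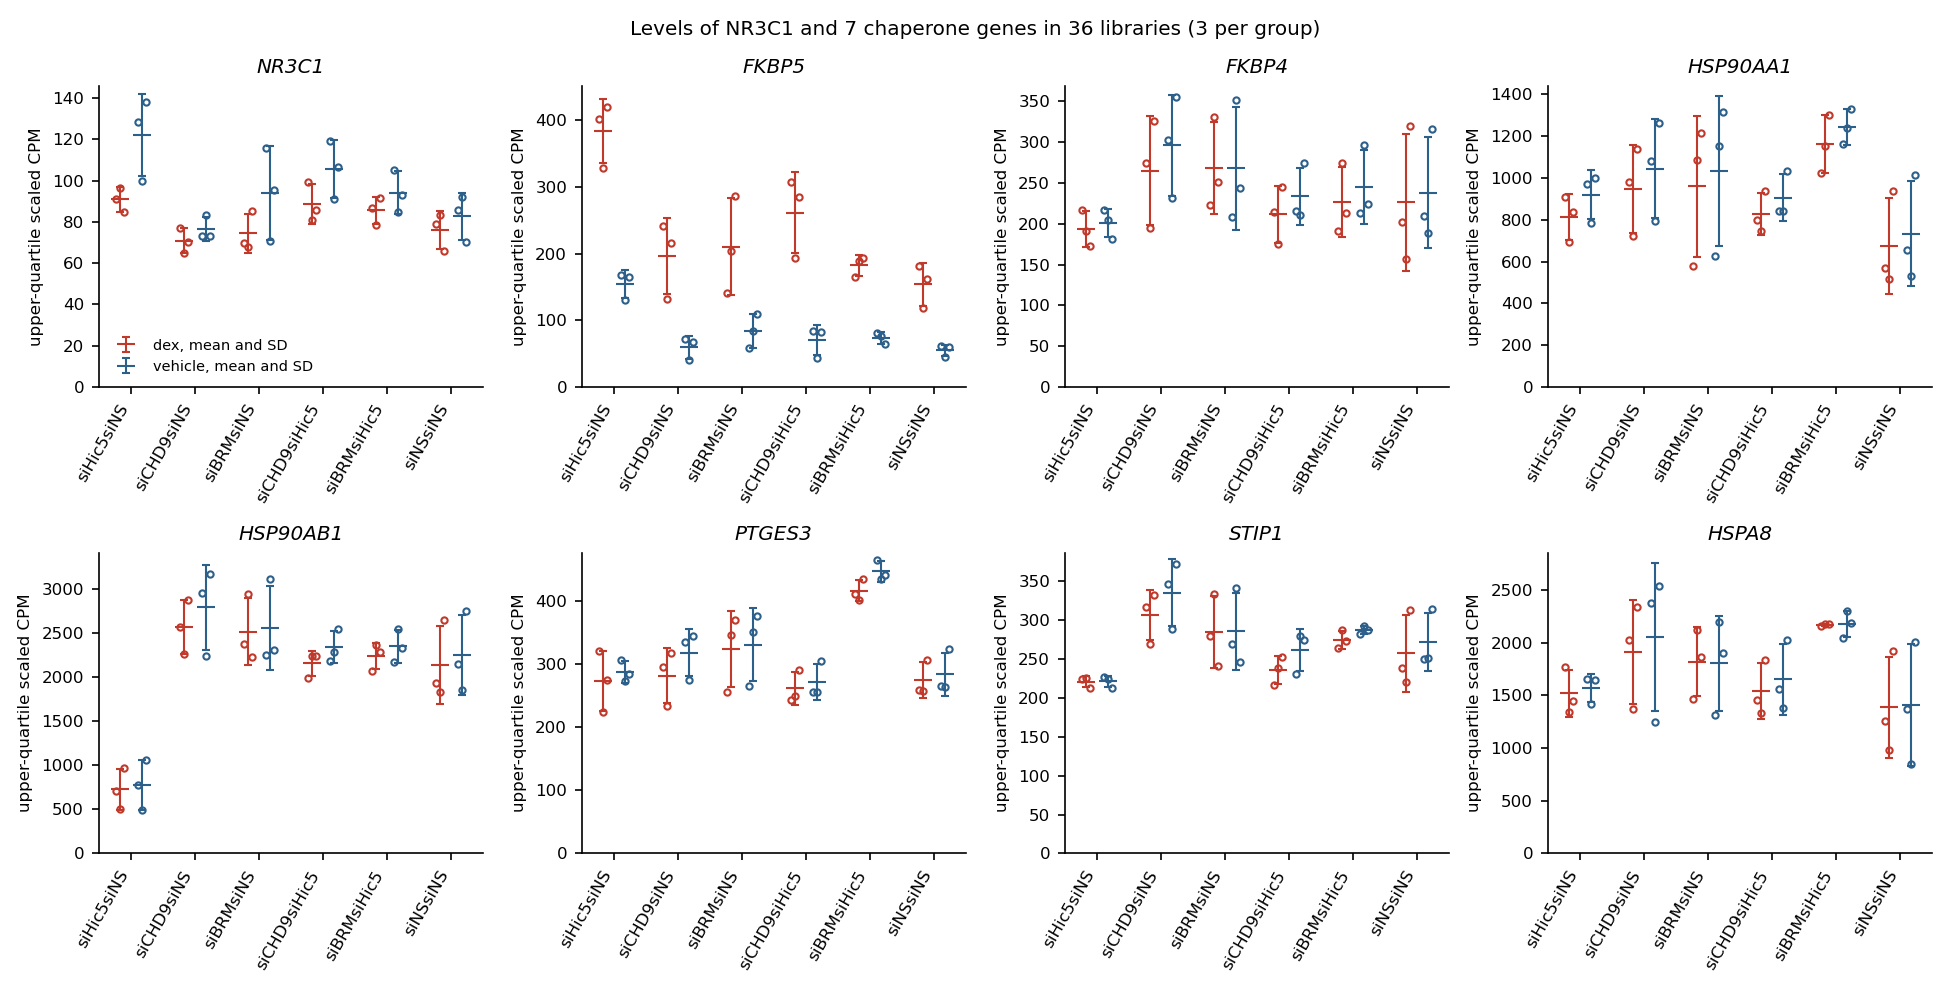
Upper-quartile scaled CPM (y axes, from 0) of the 8 genes in 36 libraries by siRNA condition, dex in red left of vehicle in blue; circles are libraries, bars the mean and SD of 3. FKBP5 is higher with dex in every condition, HSP90AB1 is low in both siHic5siNS groups, and PTGES3 is highest in both siBRMsiHic5 groups.

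Among the 8 genes, FKBP5 was the one that dex raised, and it did so in all 6 siRNA conditions. In siNSsiNS cells it stood at 182, 118 and 163 CPM in dex replicates 1 to 3, against 60.7, 45.1 and 59.3 CPM in the vehicle replicates. The lowest dex library lay above the highest vehicle library. The dex and vehicle groups of 8.16% of all tested genes did not overlap in siNSsiNS cells. The fold was 2.80 (log2 change 1.48 ± 0.28, SE, n = 3 each; edgeR quasi-likelihood test, Benjamini-Hochberg adjusted p = 0.00691). Vehicle and dex libraries of one number proved to be paired, and with a term for each pair (the replicate block) the change was 1.47 ± 0.08 (edgeR adjusted p = 6.55e-09). A gene is called here at an adjusted p under 0.05. In siNSsiNS cells 0.343% of the 15179 tested genes were called without the block and 2.5% with it, and FKBP5 is the only member in either count.

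With siHic5siNS, FKBP5 stood at 402, 329 and 420 CPM with dex, against 168, 130 and 166 CPM with vehicle. The dex level was the highest of the 12 groups, and the vehicle level was the highest of the vehicle groups. The fold of dex over vehicle was 2.48 (log2 1.31 ± 0.27, edgeR adjusted p = 0.00987), where 0.876% of genes were called without the block and 8.92% with it. With siCHD9siNS, the dex libraries gave 242, 132 and 216 CPM, against 71.8, 40.0 and 67.3 CPM in the vehicle libraries (3.30-fold, log2 1.72 ± 0.28, edgeR adjusted p = 0.00116). Replicate 2 was the low one in both treatments, and the groups did not overlap, as held for 21.9% of all tested genes. There, 0.962% of genes were called without and 24.1% with the block.

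With siBRMsiNS, FKBP5 stood at 142, 203 and 287 CPM with dex, against 58.4, 84.3 and 110 CPM with vehicle. Replicate 1 was lowest and replicate 3 highest in both treatments, and each dex library was above its vehicle partner. The log2 change was 1.33 ± 0.28 (edgeR adjusted p = 0.0193), among 0.382% of genes called without the block and 3.89% with it. In libraries labelled siCHD9siHic5, FKBP5 stood at 307, 193 and 285 CPM with dex, against 83.7, 44.1 and 81.9 CPM with vehicle. This 3.74-fold difference was the largest of the 6 (log2 1.90 ± 0.28, edgeR adjusted p = 0.000282), among 0.455% of genes called without and 4.74% with the block. With siBRMsiHic5, the dex libraries gave 165, 190 and 194 CPM, against 81.0, 76.5 and 64.0 CPM with vehicle (log2 1.31 ± 0.28, edgeR adjusted p = 0.0160). Here 0.501% of genes were called without and 5.96% with the block. Without the block, the FKBP5 call was lost on leaving out 1 library in 4 conditions. These were siNSsiNS (without dex replicate 1 or vehicle replicate 2; edgeR adjusted p = 0.0614 and 0.0923), siHic5siNS (without vehicle replicate 2; 0.0908), siBRMsiNS (4 libraries; 0.0677 to 0.171) and siBRMsiHic5 (3 libraries; 0.0777 to 0.169). With the block, FKBP5 stayed called on leaving out any 1 pair.

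The size of the FKBP5 response was then compared between each siRNA condition and siNSsiNS. The log2 responses differed by -0.17 ± 0.38 for siHic5siNS (95% interval -0.92 to 0.58), 0.24 ± 0.38 for siCHD9siNS (-0.52 to 0.99), -0.16 ± 0.38 for siBRMsiNS (-0.91 to 0.59), 0.42 ± 0.38 for siCHD9siHic5 (-0.33 to 1.17) and -0.17 ± 0.38 for siBRMsiHic5 (-0.93 to 0.58). None of these differences was called, and 0 of the 40 edgeR tests over the 8 members were called, with or without the block; 0 had an unadjusted p under 0.05 without it, and DESeq2 called 0. With the block the siCHD9siHic5 difference for FKBP5 was 0.46 ± 0.11 (edgeR adjusted p = 0.314), an SE smaller than the 0.38 without it. The intervals and the count of unadjusted p values given here leave out the pairing. Few genes were called in these 5 contrasts: without the block 0%, 0.00659%, 0%, 0% and 0% of genes for siHic5siNS, siCHD9siNS, siBRMsiNS, siCHD9siHic5 and siBRMsiHic5, and with it 0.184%, 4.05%, 0%, 0.0132% and 0%. The intervals are wide, so a response that differed by a moderate amount was not detectable without the block.

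**Figure D2:**
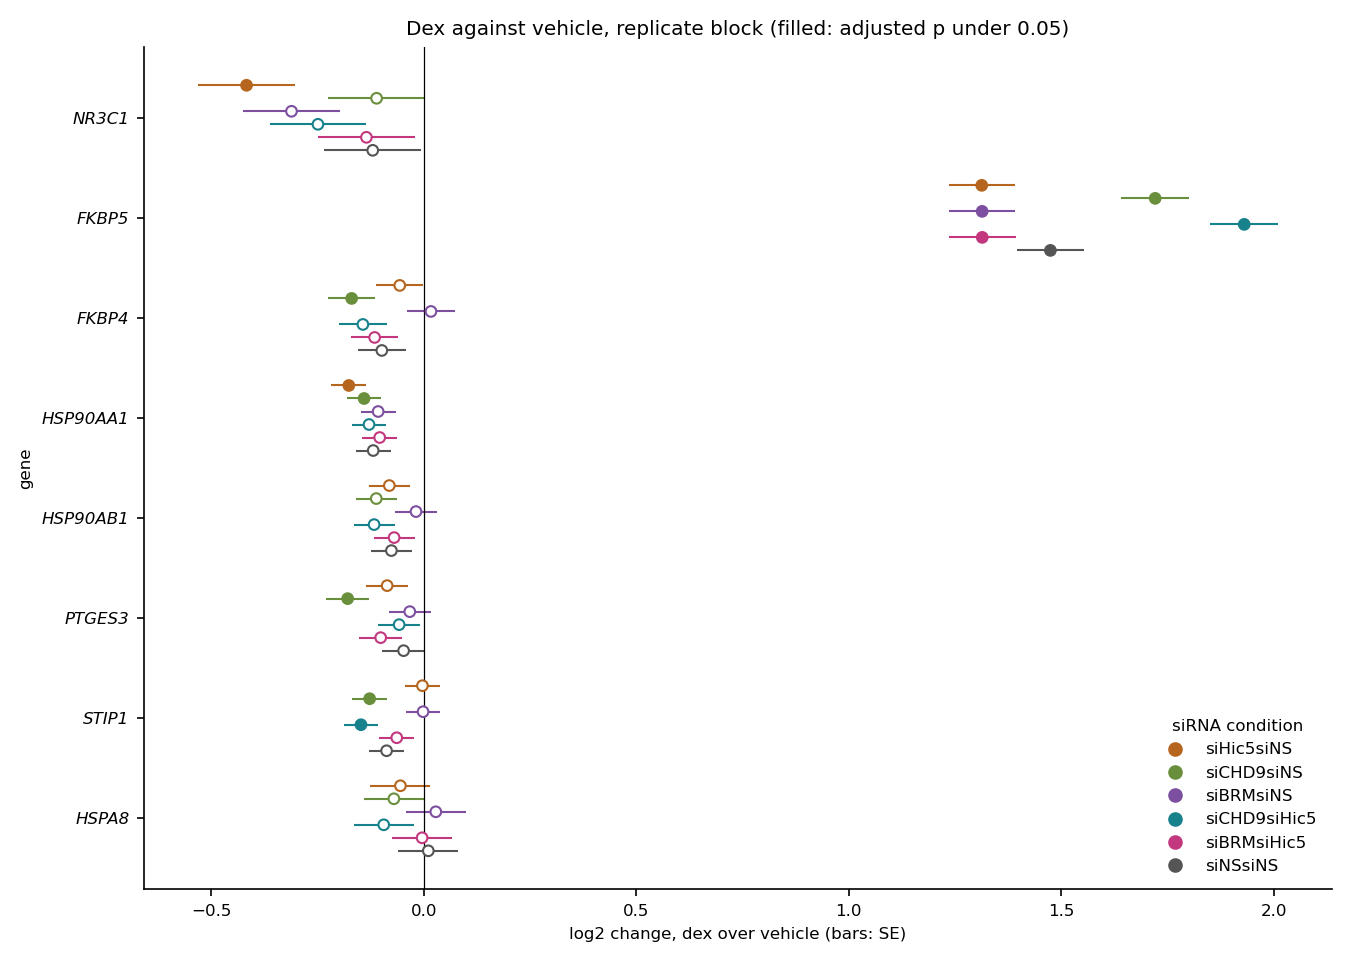
Log2 change of dex over vehicle (x axis) for the 8 genes in 6 siRNA conditions, fitted with the replicate block; points are estimates, bars SE, filled points have an adjusted p under 0.05. FKBP5 lies at 1.31 or above in every condition, and the other 7 genes lie between -0.42 and 0.03.

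The receptor gene itself and the Hsp90 components moved little with dex. NR3C1 with siHic5siNS stood at 91.2, 96.5 and 84.9 CPM in dex libraries, against 128, 99.9 and 138 CPM in vehicle libraries. The groups did not overlap, as held for 10.9% of all tested genes, and dex was lower in 3 of 3 pairs. The log2 change was -0.43 ± 0.15 without the block (edgeR adjusted p = 0.342) and -0.42 ± 0.11 with it (0.0276). The blocked call was lost without pair 1 (edgeR adjusted p = 0.143) or pair 3 (0.247). In the other conditions the log2 difference of NR3C1 was -0.11 to -0.34, and it was called neither with nor without the block. NR3C1 was lower with dex in 17 of the 18 pairs, the exception being 1 pair with siCHD9siNS. PTGES3 was lower in 17 pairs, STIP1 in 16, HSP90AB1 in 15, FKBP4 in 14 and HSPA8 in 13. All 18 pairs carry only 3 replicate numbers, and no share over all genes is given beside these tallies.

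HSP90AA1, which encodes the stress-inducible cytosolic Hsp90 alpha, was lower with dex in 3 of 3 pairs in each of the 6 conditions. With siHic5siNS it stood at 910, 696 and 837 CPM in dex libraries, against 973, 786 and 1000 CPM in vehicle libraries. The groups overlapped. The fall was called only with the block (log2 -0.18 ± 0.04, edgeR adjusted p = 0.0107, against 1.00 without it). With siCHD9siNS 4 members fell with the block, where 24.1% of all genes were called and 12.9% fell, and none without it: HSP90AA1 by 0.14, FKBP4 by 0.17, PTGES3 by 0.18 and STIP1 by 0.13 on the log2 scale (SE 0.04 to 0.06, edgeR adjusted p = 0.0153 to 0.0334). STIP1, the gene of Hop, fell by 0.15 in libraries labelled siCHD9siHic5 (edgeR adjusted p = 0.0458 with the block). In each of these cases the groups overlapped while dex was lower in 3 of 3 pairs. Each of these 6 falls lost its call on leaving out at least 1 pair. HSP90AB1 and HSPA8 were called in no condition with all pairs in the fit, and HSP90AB1 was called with siCHD9siNS without pair 2 (log2 -0.17, edgeR adjusted p = 0.0415). Their blocked log2 differences ran from -0.12 to -0.02 for HSP90AB1 and from -0.09 to 0.03 for HSPA8.

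Differences between siRNA conditions in unstimulated cells were larger. NR3C1 stood at 128, 99.9 and 138 CPM in siHic5siNS vehicle libraries, against 85.8, 92.3 and 70.2 CPM in siNSsiNS vehicle libraries. The groups did not overlap, and NR3C1 rose 1.48-fold (log2 0.56 ± 0.15, edgeR adjusted p = 0.00264). FKBP5 rose 2.81-fold in the same libraries (155 ± 21.2 against 55.0 ± 8.65 CPM, SD, n = 3 each; log2 1.49 ± 0.28, edgeR adjusted p = 6.42e-05). HSP90AB1, the constitutive Hsp90 beta, moved the opposite way. It stood at 775, 496 and 1062 CPM with siHic5siNS, against 2145, 1854 and 2747 CPM with siNSsiNS, which is 34.6% of the control level (log2 -1.53 ± 0.22, edgeR adjusted p = 2.48e-06). Its highest siHic5siNS library was well under its lowest control library. In this comparison 53.1% of all tested genes were called, and 3 of the 8 members were. The groups of 61.2% of all tested genes did not overlap, among them those of 4 of the 8 members.

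The other Hsp90 gene did not share the fall. HSP90AA1 averaged 920 ± 117 CPM with siHic5siNS and 734 ± 250 CPM with siNSsiNS, with overlapping groups (log2 0.33 ± 0.27, 95% interval -0.20 to 0.85, edgeR adjusted p = 0.316). STIP1 stood at 227, 224 and 213 CPM with siHic5siNS, against 250, 251 and 314 CPM with siNSsiNS. The groups did not overlap, as held for 61.2% of all tested genes, and the difference was not called (log2 -0.30 ± 0.14, edgeR adjusted p = 0.0658). FKBP4, the gene of FKBP52, PTGES3, the gene of p23, and HSPA8, the constitutive Hsc70, had overlapping groups and log2 differences of -0.25, 0.02 and 0.16, none of them called. Per kilobase of merged exon, HSP90AB1 was the most abundant member in siNSsiNS vehicle libraries at 754 ± 153 CPM per kb, followed by HSPA8 at 290 ± 119 and HSP90AA1 at 140 ± 47.6. On the same scale NR3C1 stood at 9.02 ± 1.24 and FKBP5 at 5.18 ± 0.81 CPM per kb.

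Among dex libraries, FKBP5 and HSP90AB1 were called again with siHic5siNS against siNSsiNS. FKBP5 stood at 384 ± 48.2 CPM in siHic5siNS dex libraries and 154 ± 32.7 CPM in siNSsiNS dex libraries (log2 1.32 ± 0.27, edgeR adjusted p = 0.000228). HSP90AB1 stood at 706, 504 and 971 CPM, against 1928, 1831 and 2641 CPM (log2 -1.55 ± 0.22, edgeR adjusted p = 1.84e-06). NR3C1 did not overlap between these groups either, but its difference of 0.26 ± 0.15 was not called (edgeR adjusted p = 0.151). Of all genes, 53.7% were called, and the groups of 62.5% did not overlap. The 4 measured markers of other cell types, of 7 listed, moved with these groups too: their summed level was 91.7 to 109 CPM in siHic5siNS vehicle libraries, against 254 to 368 CPM in siNSsiNS vehicle libraries, most of it KRT8. It was 107 to 153 CPM in vehicle libraries labelled siCHD9siHic5, where HSP90AB1 was not low. CDH1 and PECAM1 were at most 4.31 CPM, and PTPRC, ALB and APOA1 were not analysed here. The part of these genes in the results was not tested.

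**Figure D3:**
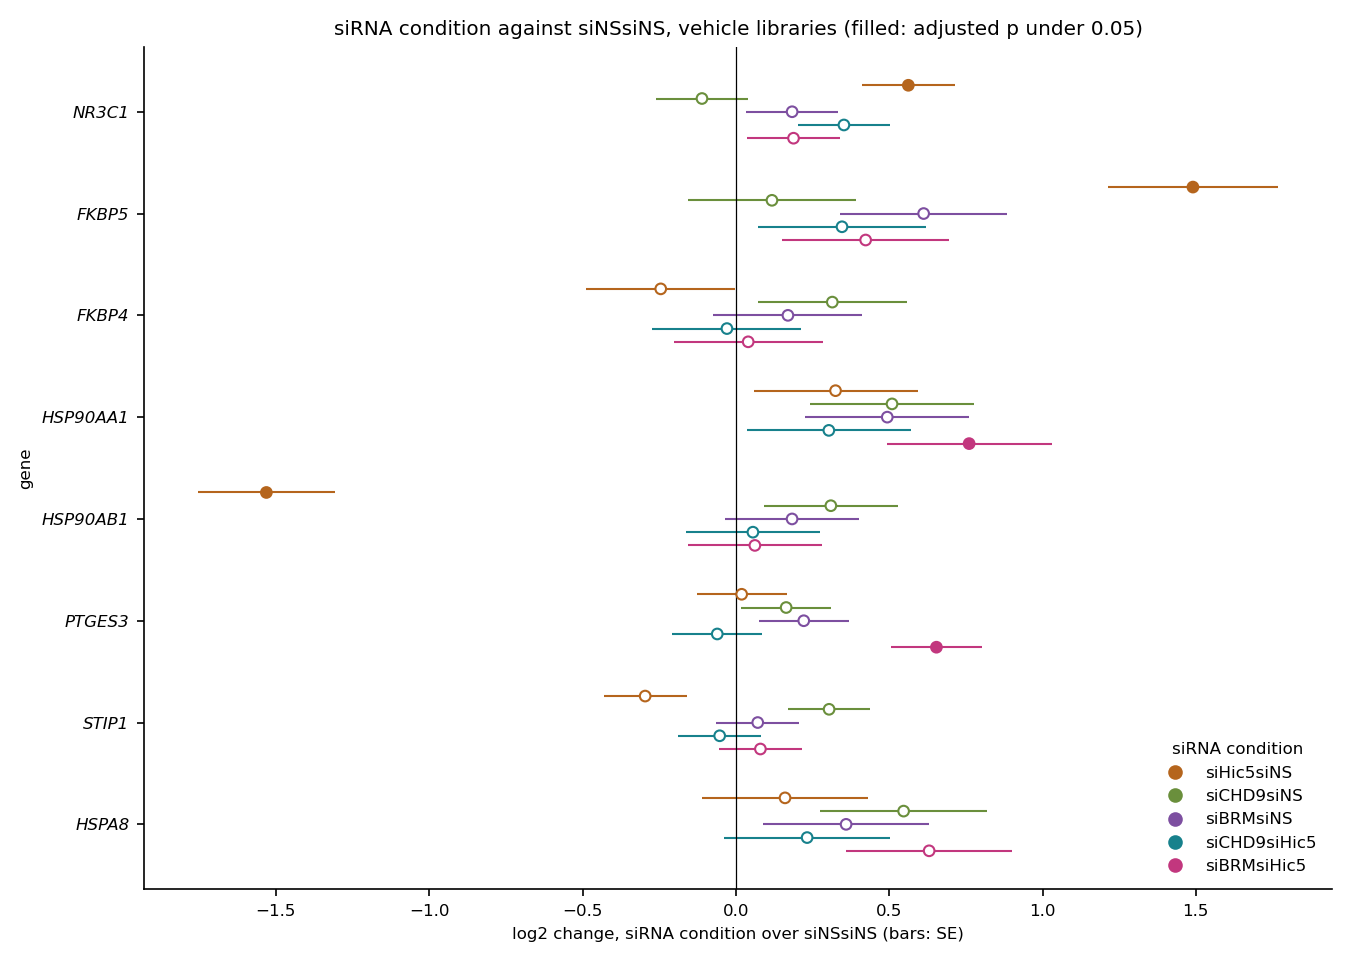
Log2 change of 5 siRNA conditions over siNSsiNS in vehicle libraries (x axis) for the 8 genes; points are estimates, bars SE, filled points have an adjusted p under 0.05. For siHic5siNS, FKBP5 lies at 1.49 and HSP90AB1 at -1.53, and the double treatments lie between 0.06 and 0.42 for these genes.

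The shifts in HSP90AB1 and FKBP5 were called with siHic5siNS, and against siNSsiNS they were called in neither double treatment among vehicle libraries, while TGFB1I1 was low in all 3. The exception was FKBP5 with siBRMsiHic5, called higher than with siNSsiNS when only those 2 groups were fitted (log2 0.42, edgeR adjusted p = 0.0411). In vehicle libraries labelled siCHD9siHic5, HSP90AB1 stood at 2184, 2285 and 2541 CPM, and in siBRMsiHic5 at 2172, 2540 and 2328 CPM. All 6 values lay above the 3 siHic5siNS vehicle values given above. The fold over siHic5siNS was 3.00 for siCHD9siHic5 (log2 1.59 ± 0.22, edgeR adjusted p = 1.54e-06) and 3.02 for siBRMsiHic5 (log2 1.59 ± 0.22, edgeR adjusted p = 1.60e-06). FKBP5 averaged 69.9 ± 22.3 CPM with siCHD9siHic5 and 73.8 ± 8.79 CPM with siBRMsiHic5, against 155 ± 21.2 CPM with siHic5siNS (log2 -1.14 ± 0.27 and -1.07 ± 0.27, edgeR adjusted p = 0.00111 and 0.00204). Of all genes, 47.7% were called for siCHD9siHic5 and 49.4% for siBRMsiHic5 against siHic5siNS. The groups of 56.5% and 56.9% of all genes did not overlap in these comparisons.

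Whether the effect of Hic-5 siRNA itself differed was tested with a contrast added after the data were seen, the effect with a remodeler siRNA minus the effect without it. For HSP90AB1 this difference was 1.28 ± 0.31 with siCHD9 (edgeR adjusted p = 0.00412) and 1.41 ± 0.31 with siBRM (0.00195). For FKBP5 it was -1.26 ± 0.39 with siCHD9 (edgeR adjusted p = 0.0197) and -1.68 ± 0.39 with siBRM (0.00289). In these contrasts 21.2% and 20.9% of all genes were called, and both share the siHic5siNS and siNSsiNS libraries. The FKBP5 difference with siCHD9 lost its call without siCHD9siNS replicate 1, siNSsiNS replicate 2 or siCHD9siHic5 replicate 2 (edgeR adjusted p = 0.0579 to 0.0623). NR3C1 was not called in either contrast, at -0.10 ± 0.21 with siCHD9 and -0.56 ± 0.21 with siBRM (edgeR adjusted p = 0.785 and 0.0605). The siBRM contrast of NR3C1 was called without siBRMsiHic5 replicate 1 (edgeR adjusted p = 0.0456), siHic5siNS replicate 2 (0.0300) or siBRMsiNS replicate 2 (0.0119).

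With siBRMsiHic5 other members were called higher than with siNSsiNS, PTGES3 and HSP90AA1. PTGES3 stood at 465, 435 and 441 CPM in siBRMsiHic5 vehicle libraries, against 265, 263 and 324 CPM in siNSsiNS vehicle libraries (1.57-fold, log2 0.65 ± 0.15, edgeR adjusted p = 0.000667). The groups were far apart, and the siBRMsiHic5 replicates were close to each other. HSP90AA1 stood at 1162, 1238 and 1332 CPM in siBRMsiHic5 vehicle libraries, against 657, 532 and 1014 CPM in siNSsiNS vehicle libraries, without overlap (log2 0.76 ± 0.27, edgeR adjusted p = 0.0205). That call was lost without siNSsiNS replicate 1 or 2 or siBRMsiHic5 replicate 3 (edgeR adjusted p = 0.0591 to 0.121). HSPA8 stood at 2046, 2302 and 2182 CPM with siBRMsiHic5, against 1369, 847 and 2003 CPM with siNSsiNS. Its groups did not overlap, but replicate 3 of the controls came close, and the difference was not called (log2 0.63 ± 0.27, edgeR adjusted p = 0.0551; 0.00760 without that library). Of all genes, 49% were called, and the groups of 58.7% did not overlap.

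The dex libraries of siBRMsiHic5 gave like differences. PTGES3 averaged 416 ± 17.2 CPM in them and 274 ± 28.2 CPM with siNSsiNS (log2 0.60 ± 0.15, edgeR adjusted p = 0.00164). HSP90AA1 averaged 1161 ± 138 CPM with siBRMsiHic5, against 675 ± 230 CPM with siNSsiNS (log2 0.78 ± 0.27, edgeR adjusted p = 0.0192), and lost its call without siNSsiNS replicate 1 or 2 or siBRMsiHic5 replicate 3 (0.0675 to 0.105). HSPA8 was again just short of the threshold (log2 0.64 ± 0.27, edgeR adjusted p = 0.0533). Here 45.5% of all genes were called. Against siHic5siNS, siBRMsiHic5 vehicle libraries also had higher PTGES3 (log2 0.64 ± 0.15, edgeR adjusted p = 0.000775) and STIP1 (0.38 ± 0.14, 0.0223) and lower NR3C1 (-0.37 ± 0.15, 0.0399). The NR3C1 call was lost without siHic5siNS replicate 1 or 3 or siBRMsiHic5 replicate 2 or 3 (edgeR adjusted p = 0.0884 to 0.175), and the STIP1 call without siHic5siNS replicate 3 or siBRMsiHic5 replicate 2 (0.0651 and 0.0545).

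In libraries labelled siCHD9siHic5, FKBP5 with dex averaged 262 ± 60.2 CPM, against 154 ± 32.7 CPM with siNSsiNS. The groups did not overlap, as held for 63.1% of all tested genes (log2 0.76 ± 0.27, edgeR adjusted p = 0.0201, among 51.5% of genes called). The call was lost without siCHD9siHic5 replicate 1 or 3 or siNSsiNS replicate 2 (edgeR adjusted p = 0.0583 to 0.107). In the vehicle libraries NR3C1 averaged 106 ± 14.1 CPM with siCHD9siHic5 and 82.7 ± 11.4 CPM with siNSsiNS. Same-numbered libraries deviated together in this comparison, and the difference was called with the block (log2 0.34 ± 0.14, edgeR adjusted p = 0.0384) and not without it (0.35 ± 0.15, 0.0502). Of all genes, 52.6% were called without the block and 57.3% with it.

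siCHD9siNS and siBRMsiNS alone gave no member call by edgeR without the block, and DESeq2 also called 0; among vehicle libraries 1 member each had an unadjusted p under 0.05. In siCHD9siNS vehicle libraries HSP90AA1 stood at 1080, 792 and 1263 CPM, against 657, 532 and 1014 CPM with siNSsiNS, higher in 3 of 3 same-numbered pairs. The groups overlapped. This was called with the block (log2 0.53 ± 0.21, edgeR adjusted p = 0.0439) and not without it (0.51 ± 0.27, 0.147). Without siNSsiNS replicate 3, HSP90AA1, STIP1 and HSPA8 were called here without the block (edgeR adjusted p = 0.0208 to 0.0338), and without siCHD9siNS replicate 2, STIP1 and HSPA8 were (0.0363 and 0.0264). Of all genes, 32.3% were called without the block and 38.1% with it in that comparison. With siBRMsiNS 6.44% of genes were called among vehicle libraries, and the member with the largest difference was FKBP5 at 84.1 ± 25.6 CPM, against 55.0 ± 8.65 CPM (log2 0.61 ± 0.27, edgeR adjusted p = 0.156). Among dex libraries 18.7% of genes were called with siCHD9siNS and 11.8% with siBRMsiNS, and 0 of 8 members in either by edgeR or DESeq2, with 0 at an unadjusted p under 0.05. Without siNSsiNS dex replicate 3, STIP1 was called with siCHD9siNS (edgeR adjusted p = 0.0369) and HSP90AA1 with siBRMsiNS (0.0490), as was HSP90AA1 without siBRMsiNS dex replicate 1 (0.0491).

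Ordered by their means, the NR3C1 levels of the 12 groups ran without a break from siCHD9siNS dex (70.9 ± 6.15 CPM) to siHic5siNS vehicle (122 ± 19.9 CPM, SD, n = 3 each). No neighbours in that order differed by more than the larger of their SDs. All vehicle groups but siCHD9siNS and siNSsiNS stood above all dex groups. FKBP5 ran from siNSsiNS vehicle to siHic5siNS dex, 6.97-fold higher. Its order broke at 3 places: between siBRMsiNS vehicle and siNSsiNS dex, between siHic5siNS vehicle and siBRMsiHic5 dex, and between siCHD9siHic5 dex and siHic5siNS dex. The siHic5siNS vehicle level of FKBP5 (155 ± 21.2 CPM) was thus next to the siNSsiNS dex level (154 ± 32.7 CPM) and within their spread. HSP90AB1 broke once, above the 2 siHic5siNS groups. PTGES3 broke below each of the siBRMsiHic5 groups.

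Across the 12 group means on the log2(CPM + 0.5) scale, HSP90AA1 and HSPA8 moved together (Pearson r = 0.96), as did FKBP4 and STIP1 (0.95). HSP90AB1 went with STIP1 (0.81) and FKBP4 (0.77) more than with HSP90AA1 (0.22). The groups share libraries' days and normalisation, so these values are descriptions. Of 14111 genes averaging 1 CPM or more over the libraries, the profiles most like that of NR3C1 were CAMK2D (r = 0.92), PODXL (0.91), SLC9A8 (0.90), GCSAM (0.89) and WWP2 (0.89), all highest in siHic5siNS vehicle libraries. Those most like FKBP5 were PLCB4 (0.96), SLC46A3 (0.95), CNTN3 (0.94), CLVS2 (0.93) and ZNF189 (0.92). PLCB4 averaged only 1.39 CPM and GCSAM 2.07 CPM. Each list holds the highest of 14111 values of r over 12 points, so high values come in part from the picking.

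Other Hsp90 co-chaperones were taken from a list of 19, of which 16 were tested; FKBPL, TTC4 and AARSD1 were not analysed here. With siHic5siNS 4 rose and 6 fell in vehicle libraries, with a median log2 difference of -0.01, the same as over all genes, of which 25.9% rose and 27.2% fell. ST13, the gene of the Hsp70-interacting protein Hip, stood at 97.2 ± 23.9 CPM, against 242 ± 25.0 CPM with siNSsiNS (log2 -1.31 ± 0.19, edgeR adjusted p = 3.06e-06). PPID, the gene of the immunophilin cyclophilin 40, stood at 16.2 ± 3.93 CPM, against 36.5 ± 4.74 CPM (log2 -1.17 ± 0.19, edgeR adjusted p = 1.30e-05; chosen after its values were seen). Neither was called lower in the double treatments. With siCHD9siHic5 ST13 was at 318 CPM and PPID at 29.7 CPM, and with siBRMsiHic5 ST13 was at 278 CPM and PPID at 41.8 CPM. With the block, ST13 was called higher with siCHD9siHic5 (log2 0.41 ± 0.14, edgeR adjusted p = 0.0161). TOMM34, a co-chaperone that links Hsp70 and Hsp90, rose to 210 CPM with siHic5siNS, against 82.0 CPM with siNSsiNS (log2 1.36 ± 0.16, edgeR adjusted p = 7.50e-08). UNC45A, a myosin co-chaperone, rose as well (log2 1.35 ± 0.19, edgeR adjusted p = 1.24e-06). Both also rose in the 2 double treatments, and TOMM34 rose with siCHD9siNS too (149 CPM, log2 0.87 ± 0.15, edgeR adjusted p = 0.000126).

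With siBRMsiHic5, 8 of the 16 co-chaperones rose and 0 fell in vehicle libraries (median log2 0.27, against -0.01 over all genes, of which 24.3% rose and 24.6% fell). BAG1, a nucleotide exchange factor of Hsp70, was raised 3.23-fold (87.3 against 27.0 CPM, log2 1.69 ± 0.23, edgeR adjusted p = 2.25e-06). With siCHD9siNS 9 rose and 1 fell (median 0.37, against 0.02), with siCHD9siHic5 5 rose and 3 fell (0.24, against -0.05), and with siBRMsiNS 1 rose and 0 fell (0.15, against 0.04). Of all genes, 32.3%, 52.6% and 6.44% were called in these comparisons. PPP5C, a phosphatase bound to Hsp90, fell in libraries labelled siCHD9siHic5 to 53.2 CPM, against 97.2 CPM (log2 -0.87 ± 0.10, edgeR adjusted p = 7.27e-08). In dex libraries the counts were 5 up and 5 down with siHic5siNS, 2 and 1 with siCHD9siNS, 2 and 0 with siBRMsiNS, 6 and 3 with siCHD9siHic5, and 7 and 0 with siBRMsiHic5, where 53.7%, 18.7%, 11.8%, 51.5% and 45.5% of all genes were called. For dex over vehicle, edgeR called 0 of the 16 in any condition without the block, and 2 of the 96 tests had an unadjusted p under 0.05. With the block 6 fell with siCHD9siNS, where 12.9% of all genes fell, among them HSPBP1 (log2 -0.35 ± 0.07, edgeR adjusted p = 0.00181) and STUB1 (-0.33 ± 0.07, 0.00340), and HSPBP1 fell with siBRMsiHic5.

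**Figure D4:**
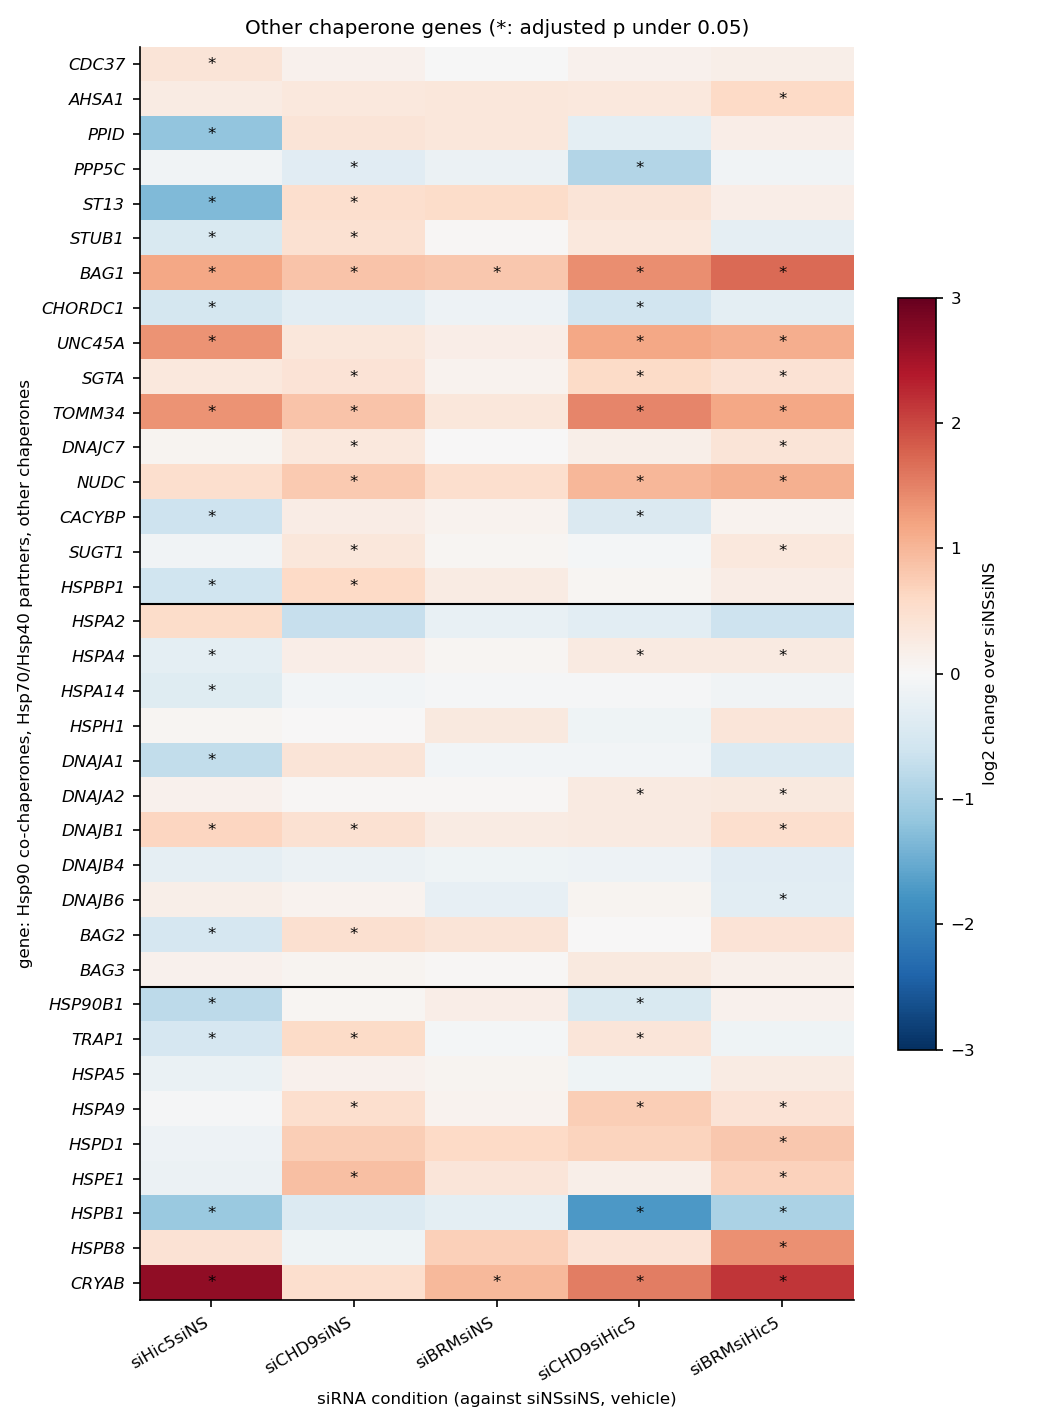
Log2 change of 5 siRNA conditions (columns) over siNSsiNS in vehicle libraries for 36 other chaperone genes (rows, in 3 lists parted by lines); red is higher, blue lower, and stars mark an adjusted p under 0.05. CRYAB and BAG1 are red in every column, and ST13 and PPID are blue with siHic5siNS.

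Of 14 Hsp70 and Hsp40 partners, 11 were tested, since HSPA1A, HSPA1B and HSPA4L were not analysed here. With siHic5siNS 1 rose, DNAJB1 (log2 0.64 ± 0.15, edgeR adjusted p = 0.000963), and 4 fell, among them DNAJA1 (225 against 373 CPM, log2 -0.73 ± 0.20, edgeR adjusted p = 0.00262) and HSPA4 (-0.30 ± 0.09, 0.00552). The other conditions called 2 up with siCHD9siNS, 0 with siBRMsiNS, 2 up with siCHD9siHic5, and 3 up and 1 down with siBRMsiHic5. The share of all genes called was 53.1% with siHic5siNS and, in the order of the other conditions just given, 32.3%, 6.44%, 52.6% and 49%. Of 9 chaperones of other compartments and small heat shock proteins, 1 rose and 3 fell with siHic5siNS, 3 rose with siCHD9siNS, 1 rose with siBRMsiNS, 3 rose and 2 fell with siCHD9siHic5, and 5 rose and 1 fell with siBRMsiHic5, against the same shares over all genes. With siHic5siNS, the lens and muscle small heat shock protein CRYAB rose 6.32-fold (199 against 31.4 CPM, log2 2.66 ± 0.24, edgeR adjusted p = 1.96e-09). HSPB1 (log2 -1.12 ± 0.18, edgeR adjusted p = 1.21e-05) and HSP90B1, the Hsp90 of the endoplasmic reticulum (-0.79 ± 0.13, 1.84e-05), fell. HSPB1 also fell with siCHD9siHic5 (log2 -1.72 ± 0.19) and siBRMsiHic5 (-0.94 ± 0.18). CRYAB also rose with siCHD9siHic5 (log2 1.53 ± 0.24), siBRMsiHic5 (2.14 ± 0.24) and siBRMsiNS (0.96 ± 0.23, edgeR adjusted p = 0.0213). CRYAB was also called higher with dex in 5 conditions with the block, for example 51.5 against 31.4 CPM with siNSsiNS (log2 0.72 ± 0.09, edgeR adjusted p = 0.000147). Without the block CRYAB was called for dex in no condition. With the block, 2.5% (siNSsiNS) to 24.1% (siCHD9siNS) of all genes were called in those 5 conditions.

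Of the heat shock factors, HSF1 was called in no vehicle comparison of an siRNA condition with siNSsiNS. HSF2 rose with siHic5siNS (28.8 against 14.7 CPM, log2 0.97 ± 0.23, edgeR adjusted p = 0.000982), with siCHD9siHic5 (0.92 ± 0.23, 0.00154) and with siBRMsiHic5 (0.65 ± 0.23, 0.0215). HSF4 rose with siCHD9siHic5 (log2 1.19 ± 0.25, edgeR adjusted p = 0.000276) and fell with siBRMsiHic5 (-1.10 ± 0.26, 0.00109). Among other receptors that use the same chaperones, PGR and ESR1 were not analysed here. NR3C2, the mineralocorticoid receptor gene, was at 10.0 CPM with siHic5siNS, against 10.2 CPM with siNSsiNS, and fell with siBRMsiHic5 (log2 -0.85 ± 0.28, edgeR adjusted p = 0.0153). AHR, the aryl hydrocarbon receptor gene, was near the floor, with a median of 0.29 CPM, a maximum of 1.59 CPM and a lowest count of 2. It passed the filter only through the minority of libraries over 1 CPM, and its highest group mean was 0.98 CPM, with siNSsiNS dex. It was called lower with siHic5siNS (0.15 against 0.59 CPM, edgeR adjusted p = 0.00873), siCHD9siNS (0.0175) and siCHD9siHic5 (0.00330). These AHR calls rest on few counts and carry little weight. ESR2, at most 2.15 CPM, fell with siCHD9siHic5 (0.63 against 1.04 CPM, edgeR adjusted p = 0.0419). In these vehicle comparisons 53.1% of all genes were called with siHic5siNS, 32.3% with siCHD9siNS, 52.6% with siCHD9siHic5 and 49% with siBRMsiHic5. A call of a single heat shock factor or receptor gene was therefore common among all genes.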

How the data were processed

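The labels give RNA-seq of U2OS cells with GR alpha, 3 biological replicates per group. The deposited table holds whole-number counts per gene, with Entrez IDs and symbols. Its name speaks of normalised CPM, but all values are whole and totals differ, so they were treated as counts. Per the submitters' processing notes, the authors used TopHat2 2.1.1, edgeR and GRCh38; the sources used here do not name the read counter or annotation.

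Counts were fitted with edgeR 4.0.16 (quasi-likelihood, upper-quartile factors, R 4.3.3) over 36 libraries and 12 group means (24 residual degrees of freedom). Genes with a CPM over 1 in at least 3 libraries were tested (15179; 7 left out), and p values were adjusted by Benjamini-Hochberg over all of them, within each of 25 comparisons. Intervals and p values measure the spread between these libraries.

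Same-numbered dex and vehicle libraries had residual correlations of 0.458 to 0.922 in all 18 pairs, and 36 of 36 libraries were closest to their own number. Among siRNA comparisons every pair passed 0.1 for siCHD9siNS, and for siCHD9siHic5, only. The replicate block (a term for each pair, or for the number between siRNA conditions) is given where it applies and changes a call. Libraries of one group differed beyond sampling noise in all 36 pairs (chi-square divided by its degrees of freedom at least 9.59). Alternatives were TMM, no factors, no filter, DESeq2 1.42.0, only the groups compared, the block and leaving out each library; leaving out each pair and the 2 contrasts of Hic-5 siRNA effects were added after seeing the data. The fit without a block and the fit with a term for each pair were tested on simulated data, for dex with siNSsiNS only. The other fits and comparisons were not tested in this way. Named genes are the 8 members, the siRNA targets, the 5 likest profiles of NR3C1 and FKBP5, and up to 3 called genes per list and comparison. The members and lists were chosen with earlier results of these data known. Promoter windows are from RefSeq. One gene of the receptor list is not reported here.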

Additional observations from a re-analysis of the deposited data

Results flagged for a closer look

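The difference between Hic-5 siRNA effects in vehicle libraries, with a remodeler siRNA minus without one, passed the threshold for 2 of the 8 genes. For HSP90AB1 it was 1.28 ± 0.31 on the log2 scale with siCHD9 (edgeR adjusted p = 0.00412) and 1.41 ± 0.31 with siBRM (edgeR adjusted p = 0.00195). For FKBP5 it was -1.26 ± 0.39 with siCHD9 (edgeR adjusted p = 0.0197) and -1.68 ± 0.39 with siBRM (edgeR adjusted p = 0.00289). These contrasts were added after the data were seen, and both use the siHic5siNS and siNSsiNS vehicle libraries. In vehicle libraries TGFB1I1 was at 7.47 CPM with siCHD9siHic5 and 5.23 CPM with siBRMsiHic5, against 7.06 CPM with siHic5siNS. CHD9 was not lower in vehicle libraries labelled siCHD9siHic5, at 123 CPM against 88.6 CPM with siNSsiNS (edgeR adjusted p = 0.0293). The siCHD9 contrasts thus go by the label.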

How the results depend on the processing

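Of 2736 recomputed member values, 2667 kept their direction and their side of the threshold, 32 lost a call, 37 gained one and none that was called reversed. The fits that left out a dex and vehicle pair are not in that tally: of their 384 member values 18 lost a call and 1 gained one. The calls of FKBP5, NR3C1 and HSP90AB1 with siHic5siNS against siNSsiNS in vehicle libraries, and of PTGES3 with siBRMsiHic5, held in all 12 alternatives each (log2 1.37 to 1.60, 0.46 to 0.69, -1.82 to -1.29 and 0.60 to 0.76). Fitting only the groups compared left 0 members called for dex with siCHD9siNS, siBRMsiNS and siCHD9siHic5, where fewer residual degrees of freedom remain. The replicate block gave 3, 5 and 2 for dex with siHic5siNS, siCHD9siNS and siCHD9siHic5, and 1 each for siCHD9siNS and siCHD9siHic5 vehicle. For siCHD9siHic5 vehicle, TMM and DESeq2 each called 1 (NR3C1). In siBRMsiHic5, where numbers did not pair, the block called HSPA8 as well (edgeR adjusted p = 0.0157 vehicle, 0.0166 dex), as did TMM and DESeq2. With siBRM, the difference of Hic-5 siRNA effects of NR3C1 was called with the block (edgeR adjusted p = 0.0424).

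Leaving out each replicate gave 0 to 1 members called for dex with siNSsiNS, siHic5siNS, siBRMsiNS and siBRMsiHic5, and 1 for dex with siCHD9siNS and siCHD9siHic5. It gave 0 to 3 for siCHD9siNS vehicle, 0 to 1 for siCHD9siHic5 vehicle, 1 to 3 for siBRMsiHic5 vehicle and dex, and 0 to 1 for siCHD9siNS, siBRMsiNS and siCHD9siHic5 dex. For siBRMsiHic5 against siHic5siNS it gave 3 to 5, and for the contrasts of Hic-5 siRNA effects 1 to 2 with siCHD9 and 2 to 3 with siBRM. The cause of these changes was not tested.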
